A study of Mus musculus with 16 samples.

Results

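The comparison described here is the effect of Tsc1 loss on the transcriptome of resting CD4 T cells. Log2 signals of 3 arrays of naive CD4 T cells from Tsc1-deficient mice were set against 3 arrays of the same cells from wild-type mice, all of them unstimulated (0 h), for 17097 genes. Every gene with a probe set that names it alone was a member, with 1 probe set per gene, the one with the highest mean signal over all 16 arrays of the series. The mice were of the C57BL/6 background and the cells were sorted. The labels name neither the Tsc1 allele and the cells in which it was deleted nor the surface markers of the sort, and 1 sentence of their treatment text names another deficient strain, while all genotype entries and titles name Tsc1. The other 10 arrays are of CD4 cells after 4 h on antibodies against CD3 and CD28 (3 per genotype) and of unstimulated CD8 cells (2 per genotype), and they served to estimate each gene's spread and to set the resting change beside those of other conditions. Whether each array stands for a mouse of its own is not in the labels; p-values therefore reflect array-to-array spread, possibly only technical. Changes are deficient minus wild-type on the log2 scale with their standard error (±), a gene is called at an adjusted p under 0.05 in limma, and fewer cells of a type cannot be told apart from less RNA per cell in such bulk samples.

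TSC1 is the scaffold of the TSC complex, which keeps the small GTPase RHEB inactive and so restrains mTORC1, a kinase complex that sits on lysosomes and drives protein, lipid and nucleotide synthesis when nutrients and growth signals allow. Naive T cells circulate for long periods as small cells outside the cell cycle, a state known as quiescence, held by transcription factors such as FOXO1, KLF2 and BACH2. Antigen raises mTORC1 activity and ends that state. The question of the series, from its title, is how Tsc1 holds naive T cells quiescent, and this comparison asks it of cells that received no stimulus in culture.

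Of the 17097 genes, 997 were called (5.83%). Of these, 677 were higher (3.96%) and 320 lower (1.87%) in deficient cells, and 161 (0.942%) differed at least 2-fold, 137 of them higher and 24 lower. The rises reached further than the falls. Among the called genes, 19 rose by 2 to 3 and 4 by 3 or more, while 2 fell by 2 to 3 and 0 by more. Small changes made up much of the profile, with 225 rises and 134 falls under 0.5, and the smallest called change was 0.285. The median called rise was 0.60 and the median called fall was -0.52, whereas over all genes the median was 0.0097 and the central 90% ran from -0.313 to 0.412. The table median is 3.36. Of genes whose wild-type mean lay below it, 1.12% were called, against 9.33% to 10.1% in the 4 classes of brighter genes, and 72 genes that rose started from below that median. At the threshold, Rex1bd (0.33), Fgf13 (0.52) and Ikzf5 (-0.34) were the last genes inside and Scg5 (-0.37), Actl7b (-0.36) and Agpat5 (0.30) the first outside.

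**Figure D1:**
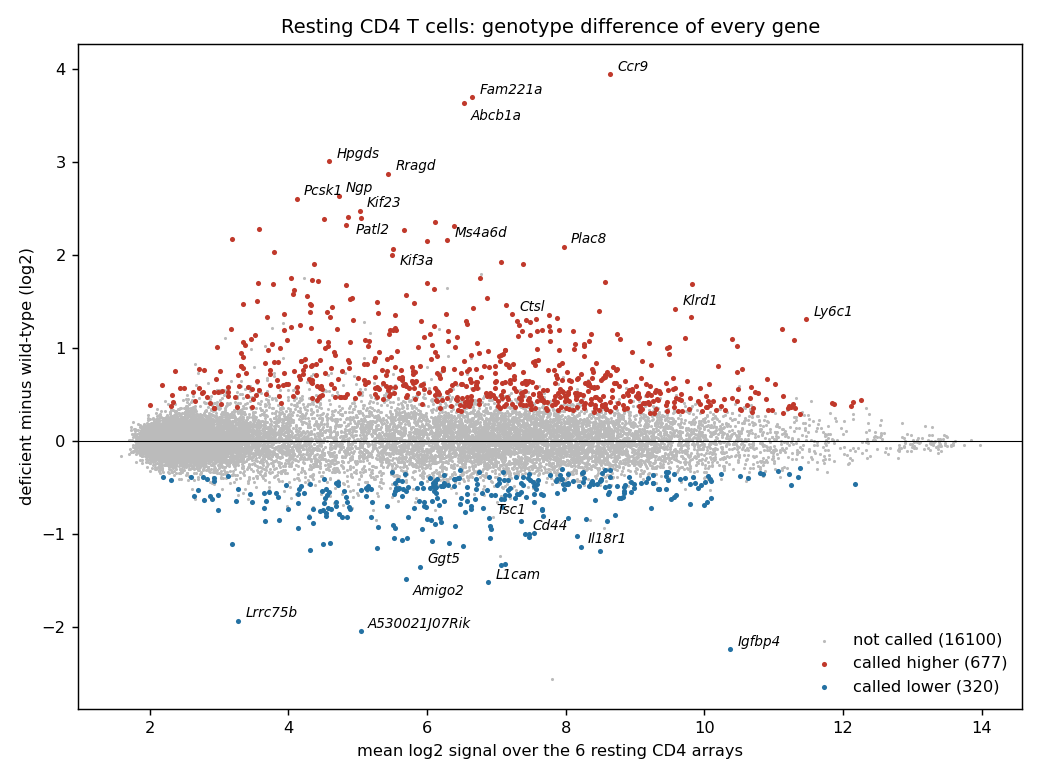
Each point is a gene, placed by its mean log2 signal over the 6 resting CD4 arrays (horizontal axis) and by its deficient minus wild-type difference (vertical axis, log2). The 677 genes called higher (red) reach 3.94 at Ccr9, the 320 called lower (blue) reach -2.24 at Igfbp4, and grey points are the genes not called.

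The balance of rises and falls rests on the scaling between arrays. With the deposited values, 67.9% of called genes were higher. Quantile normalization shifted the profile by -0.025 and gave 628 higher and 465 lower (57.5% higher). Centring each array on its median shifted it by -0.0677 and gave 503 higher and 557 lower (47.5% higher). Leaving out wild-type replicate 2 or 3 lowered the number of called genes to 625 or 606, and leaving out deficient replicate 1 or 2 lowered it to 589 or 610. Of the 997 called genes, 995 had arrays that did not overlap between genotypes, a separation seen in 16.5% of all genes with deficient arrays above and 12.1% with them below.

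Tsc1 itself read 7.25, 7.39 and 7.29 on the wild-type arrays and 6.42, 6.54 and 6.5 on the deficient arrays. The groups did not overlap, and the change was -0.83 ± 0.10 (limma, adjusted p = 3.77e-05), a fall to 0.564 of the wild-type signal. With its 3 probe sets averaged the change was -0.38 (adjusted p = 0.00776). Its other 2 probe sets were at -0.13 (adjusted p = 0.769) and -0.19 (adjusted p = 0.553), and the labels do not place any of them inside or outside the deleted region. Of 20 genes listed for the TSC complex, RHEB, both mTOR complexes and their kinases, 17 were measured. Tsc2, Akt1s1 and Rps6kb1 were not, so nothing can be said of them. Among those measured 2 fell (Tsc1 and Rhebl1) and 0 rose, with a list median of -0.0047. Rhebl1, a close relative of the RHEB GTPase, read 6.60, 6.61 and 6.62 in wild-type cells against 5.53, 5.60 and 5.48 in deficient ones (-1.07 ± 0.13, adjusted p = 4.25e-05). The arrays of each genotype lay close together, and the groups were well apart. Rheb (-0.03), the kinase Mtor (-0.05), the mTORC1 subunit Rptor (0.03) and the mTORC2 subunit Rictor (-0.25) were not called.

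The genes through which nutrients reach mTORC1 leaned upward. Of 25 such genes, 6 were called higher and 0 lower (median change 0.27), although 3 to 5 were called higher when any 1 array was left out (3 without deficient replicate 1 or wild-type replicate 3). Rragd, a Rag GTPase that helps to place mTORC1 on the lysosome, read 4.64, 3.72 and 3.65 on wild-type arrays and 6.84, 6.77 and 7.01 on deficient arrays. That is a rise of 2.87 ± 0.21 (7.32-fold, adjusted p = 4.03e-07), and wild-type replicate 1 stood above the other wild-type arrays but far below the deficient ones. Flcn, the folliculin GTPase regulator of the Rag proteins, read 6.73, 6.54 and 6.52 against 7.49, 7.66 and 7.43 (0.93 ± 0.17, adjusted p = 0.00287). Castor2, a relative of the arginine sensor CASTOR1, went from 5.58, 5.34 and 5.21 to 6.11, 6.07 and 6.35 (0.80 ± 0.13, adjusted p = 0.000955). Neither gene's groups overlapped. Sesn1 (0.61), Sesn2 (0.59) and Lamtor1 (0.39) were called higher too. The list holds both activators of mTORC1 and genes that restrain it, such as the sestrins Sesn1 and Sesn2. Another Rag gene, Rragc, was at 0.39 and the folliculin partner Fnip1 at 0.54, both not called.

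Of 68 genes for lysosomal hydrolases, membrane proteins and the vacuolar proton pump, 33 were called higher and 0 lower, 62 had a positive change, and the median was 0.39 against 0.0097 over all genes. The count was 21 without wild-type replicate 3 and 25 to 30 without any other single resting array. Among 33 soluble enzymes 17 rose. Ctsl, the protease cathepsin L, read 6.45, 6.54 and 6.65 in wild-type cells against 7.95, 7.85 and 7.92 in deficient ones, a rise of 1.36 ± 0.18 (2.57-fold, adjusted p = 0.000135). Hexa, a subunit of the ganglioside-degrading hexosaminidase, went from 8.45, 8.52 and 8.47 to 9.46, 9.41 and 9.43 (0.95 ± 0.10, adjusted p = 1.41e-05). The arrays of each genotype lay close together for both genes, and the genotypes did not overlap. Fuca1 (0.71), Manba (0.70), Tpp1 (0.65) and Asah1 (0.64), which degrade fucosides, mannosides, peptides and ceramide, rose by less than 2-fold each.

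Among 21 lysosomal membrane genes 8 rose, and 5 to 8 were called without 1 array (5 without wild-type replicate 2 or 3 or deficient replicate 1 or 2). Lamp2, a main glycoprotein of the lysosomal membrane, read 7.41, 7.06 and 7.10 on wild-type arrays and 8.42, 8.35 and 8.33 on deficient arrays (1.18 ± 0.12, adjusted p = 8.57e-06), with 2 further probe sets also called higher. Ostm1, a partner of the lysosomal chloride exchanger, rose by 0.68, the cystine exporter Ctns by 0.62 and Lamp1 by 0.57. Gpr137b-ps rose by 1.36 ± 0.18, but its sequence is close to that of Gpr137b, which was at -0.06, so which copy was measured is uncertain. Of 14 proton pump genes 8 rose. The membrane-sector subunit Atp6v0d1 read 8.24, 8.45 and 8.38 in wild-type cells against 9.10, 9.06 and 9.24 in deficient ones (0.78 ± 0.10, adjusted p = 0.000103). Atp6ap2, an accessory subunit, went from 10.10, 10.13 and 10.06 to 10.80, 10.80 and 10.90 (0.74 ± 0.09, adjusted p = 3.98e-05). Both showed clear gaps between genotypes, and Atp6v1d (0.67), Atp6v1h (0.50) and Atp6ap1 (0.49) rose as well.

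Lysosomal genes are abundant in myeloid cells, and the summed levels of 2 lists of myeloid markers also read higher on deficient arrays. The summed level of 14 monocyte and dendritic cell genes was 9.10, 9.14 and 9.29 on the log2 scale on wild-type arrays and 9.34, 9.33 and 9.61 on deficient arrays. That of 12 neutrophil genes was 7.34, 7.10 and 8.24 against 8.58, 8.30 and 10.37. In each list 1 gene was called, Ms4a7 (0.75 ± 0.17, adjusted p = 0.0107) and the granule gene Ngp (2.64 ± 0.67, adjusted p = 0.0277). These are 7.14% and 8.33% of the lists, near the 5.83% called over all genes. Of the 14 monocyte and dendritic cell genes 13 had a positive change (median 0.13, range -0.14 to 0.75), 2 had deficient arrays above all wild-type arrays and 4 were at or below the table median. Of the 12 neutrophil genes 11 had a positive change (median 1.06, range -0.01 to 2.64), 6 had deficient arrays above all wild-type arrays and 4 were at or below the table median. Over all genes, 16.5% had deficient arrays above all wild-type arrays. Among defining genes of macrophages Csf1r was at 0.04, Adgre1 at 0.07 and Itgam at -0.14, and none of these was called. The part of myeloid cells in the lysosomal rise was not tested. Neutrophil genes were highest on deficient replicate 3. The summed lysosomal enzyme level was 13.37, 13.35 and 13.31 in wild-type cells against 13.78, 13.75 and 13.77 in deficient ones, and 25 of the 68 lysosomal genes were called higher without that array, as without deficient replicate 1 or 2. The call of Ms4a7 was lost without deficient replicate 1 or wild-type replicate 2, and that of Ngp without deficient replicate 3 (1.82, adjusted p = 0.134) or wild-type replicate 1 (2.51, adjusted p = 0.0931) or 2 (2.08, adjusted p = 0.15).

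**Figure D2:**
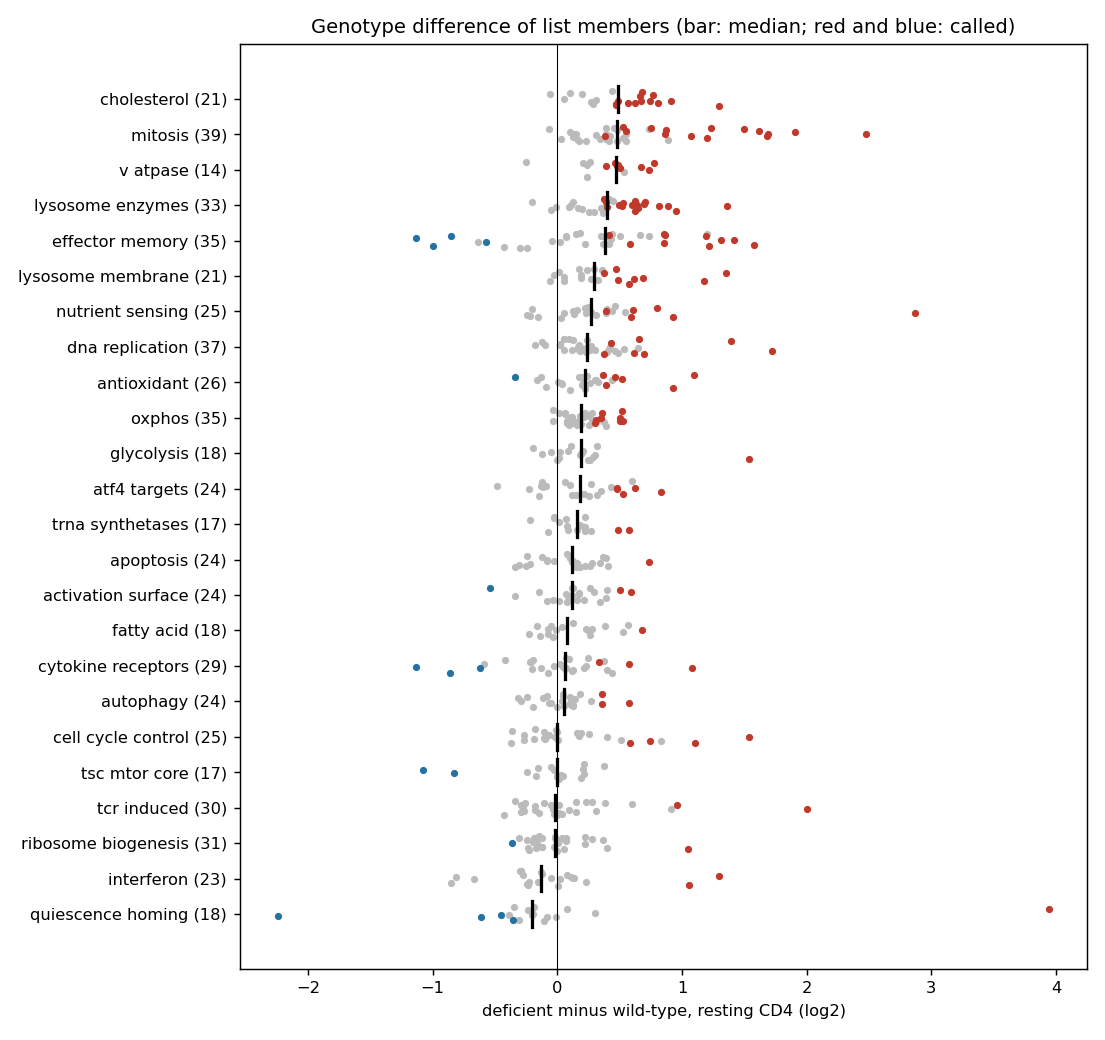
Each row is one of the 24 pathway lists with its number of measured genes, each point a member's deficient minus wild-type difference in resting CD4 cells (log2, horizontal axis), and the black bar the list median. Red points are called higher and blue called lower: cholesterol genes (median 0.49), mitosis genes (0.48) and proton pump genes (0.47) lie furthest right and the quiescence and homing genes (-0.20) furthest left.

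The promoters of lysosomal genes often carry the motif known as CLEAR, which transcription factors of the MiT/TFE family recognise. Its core, GTCACGTG, was searched on both strands in RefSeq windows of 300 bases (250 before to 50 after the start, build GRCm38.p6). It was found for 2.55% of 27025 genes with a window and for 3.78% of the genes tested (13605 of 17097 had a window). Among the genes called higher the share was 7.04% (554 of 677 had a window), and among the lysosomal genes, called or not, 27.3% (15 genes, 55 of 68 with a window). In the lysosomal genes called higher the share was alike at 28.6% (8 genes, 28 of 33 with a window). The following stretches of 60 bases from 3 genes that rose are shown because the motif, in capitals, lies before the start in each; Ctsa (cathepsin A, 0.62 ± 0.13, adjusted p = 0.00736) and Ctsd (cathepsin D, 0.60 ± 0.10, adjusted p = 0.00193) were chosen after their values were seen. A match describes the letters and shows neither a bound site nor a cause. The stretches are chr8:13159101-13159160 on the + strand for Lamp1, chr2:164833713-164833772 on the + strand for Ctsa and chr7:142388018-142388077 on the - strand for Ctsd, printed 5′ to 3′ on the gene's strand.
Lamp1: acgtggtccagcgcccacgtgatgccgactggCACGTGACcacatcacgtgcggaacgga
Ctsa: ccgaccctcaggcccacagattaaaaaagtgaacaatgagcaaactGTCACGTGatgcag
Ctsd: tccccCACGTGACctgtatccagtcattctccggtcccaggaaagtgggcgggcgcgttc
In Lamp1 the motif ends 20 bases before the annotated start, in Ctsa 6 bases and in Ctsd 237 bases before it. The factors themselves showed no call, with Tfeb at 0.18, Tfe3 at 0.14 and Mitf at -0.32.

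Genes of autophagy, which delivers cargo to lysosomes, did not follow as a group. Of 24 measured, 3 were called higher and 0 lower, and 0 to 1 were called without any 1 array (0 without wild-type replicate 1 or 3 or deficient replicate 1 or 3). The median of 0.05 turned to -0.02 after median centring. The 3 genes were the ubiquitin-like Gabarapl1 (0.57, adjusted p = 0.0251) and Gabarap (0.36, adjusted p = 0.0395), which coat forming autophagosomes, and Uvrag (0.36, adjusted p = 0.0316). The initiating kinase Ulk1 (0.27) and the core factors Atg5 (0.10) and Atg7 (0.12) were not called.

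Sterol synthesis genes had the highest median of the 24 pathway lists, 0.49. Of 21 genes 13 were called higher and 0 lower, 20 changes were positive, and the count was 8 without wild-type replicate 1 and 9 or 10 without any other single array. Cyp51, the lanosterol demethylase, read 5.70, 6.05 and 5.99 on wild-type arrays and 7.10, 7.42 and 7.10 on deficient arrays, a rise of 1.29 ± 0.14 (2.45-fold, adjusted p = 2e-05). Fdps, which makes farnesyl diphosphate, went from 7.66, 7.89 and 7.89 to 8.69, 8.89 and 8.58 (0.91 ± 0.18, adjusted p = 0.00464). Sqle, the squalene epoxidase, went from 6.42, 6.70 and 6.59 to 7.39, 7.48 and 7.28 (0.81 ± 0.14, adjusted p = 0.00149). Deficient arrays lay above wild-type arrays in these 3 genes throughout. Insig1 (0.74), which senses sterols in the endoplasmic reticulum, Ebp (0.68), Fdft1 (0.67) and Mvd (0.67) also rose. Hmgcs1 (0.20), Lss (0.10) and the master factor Srebf2 (0.29) were not called.

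The CCAAT box CCAATCA, searched in the same windows on both strands, was found for 64.7% of the sterol genes (11, with 17 of 21 having a window). Its share was 9.0% of all 27025 genes, 10.7% of the genes tested and 18.4% of the genes called higher. The sterol element TCACNCCAC was found for 5.88% of the sterol genes (1 gene) and 1.44% of all genes. The next 2 stretches show the CCAAT box in capitals, at chr8:122443423-122443482 on the - strand for Mvd (mevalonate diphosphate decarboxylase) and chr13:8885532-8885591 on the + strand for Idi1 (isopentenyl diphosphate isomerase, 0.57 ± 0.12, adjusted p = 0.00725, chosen after its value was seen).
Mvd: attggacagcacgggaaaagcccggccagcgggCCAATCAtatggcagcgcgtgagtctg
Idi1: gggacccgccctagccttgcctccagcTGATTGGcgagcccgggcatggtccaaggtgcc
It lies 20 and 40 bases before the start. In Idi1 the box is read on the opposite strand, so its letters appear as TGATTGG.

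Of 18 fatty acid genes 1 rose, the desaturase Fads1 (0.68, adjusted p = 0.00991), whose call was lost without wild-type replicate 3 or deficient replicate 3, and the median was 0.08. That share of 5.56% was near the 5.83% of all genes. The synthase Fasn was at 0.23, the carboxylase Acaca at 0.25 and the elongase Elovl6 at 0.57.

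Of 24 genes of the ATF4 pathway, which answers amino acid shortage and mTORC1, 5 were called higher and 0 lower (median 0.18), with 2 to 4 called without 1 array (2 without deficient replicate 1 or 2). Median centring gave 3 higher and 1 lower, and quantile normalization 4 higher and 1 lower. Trib3, a pseudokinase induced by ATF4, read 4.55, 4.68 and 4.81 in wild-type cells against 5.42, 5.59 and 5.51 in deficient ones (0.83 ± 0.11, adjusted p = 0.000237), without overlap, while Atf4 itself was at -0.22. Of 35 respiratory chain and ATP synthase genes 8 were called higher and 0 lower, 33 changes were positive with a median of 0.19, and 2 to 4 were called without 1 array (2 without wild-type replicate 2 or deficient replicate 1 or 2). Median centring gave 3, with a median of 0.13, and averaged probe sets 5. Cox5b, a cytochrome oxidase subunit, read 10.41, 10.46 and 10.52 against 11.00, 11.00 and 10.98 (0.53 ± 0.10, adjusted p = 0.00381), the largest change in that list. The tRNA synthetases gave 2 rises among 17 genes, 0 without wild-type replicate 2 or 3 or deficient replicate 2.

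In glycolysis, 1 of 18 genes was called (5.56%, near the 5.83% of all genes). Aldoc, an aldolase best known from brain, read 4.01, 4.03 and 4.41 on wild-type arrays and 5.78, 5.89 and 5.39 on deficient arrays, a rise of 1.54 ± 0.15 (2.91-fold, adjusted p = 7.1e-06). The other 17 changes stayed between -0.19 and 0.32, among them the glucose transporter Slc2a1 (-0.12), Hk2 (0.19) and Ldha (0.27). Of 26 antioxidant genes 6 were called higher and 1 lower, and 3 or 4 were higher without 1 array (3 without wild-type replicate 3 or deficient replicate 1). The gene called lower was the mitochondrial thioredoxin reductase Txnrd2 (-0.34, adjusted p = 0.0448). It was not called with averaged probe sets (-0.18, adjusted p = 0.229), nor when any 1 array but wild-type replicate 1 was left out. Nfe2l2, which encodes the antioxidant regulator NRF2, read 9.09, 8.96 and 9.03 against 9.91, 10.01 and 9.95 (0.93 ± 0.15, adjusted p = 0.000914), with no overlap. The other genes of the list called higher were Mgst1 (1.10), Prdx2 (0.52), Prdx4 (0.46), Gstp1 (0.39) and Gpx1 (0.36). Nqo1 (0.003), Gclm (-0.13) and Hmox1 (0.44), known targets of NRF2, were not called. Targets of NRF2 were not tested as a set.

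Cell cycle genes were read next, in cells that had received no stimulus. Of 39 mitosis genes 15 were called higher and 0 lower, 38 changes were positive, and the median was 0.48. The count was 12 to 16 without any 1 array. Kif23, the kinesin of the central spindle, read 3.88, 3.66 and 3.83 in wild-type cells against 6.48, 6.29 and 6.03 in deficient ones (2.47 ± 0.26, 5.56-fold, adjusted p = 1.17e-05). A second, dim Kif23 probe set was at -0.11 (adjusted p = 0.821). Ube2c, which hands ubiquitin to the anaphase-promoting complex, went from 3.52, 3.06 and 3.68 to 5.26, 5.62 and 5.09 (1.90 ± 0.31, adjusted p = 0.0011). Mki67, the Ki-67 antigen of cycling cells, went from 3.84, 3.97 and 4.17 to 5.76, 5.84 and 5.43 (1.68 ± 0.15, adjusted p = 3.58e-06). These signals were close to the table median in wild-type cells and above it on all deficient arrays. Ccnb2 (1.69), Birc5 (1.62), Top2a (1.5), Cdk1 (1.23) and Cdc25b (1.20), for a mitotic cyclin, survivin, a topoisomerase, the mitotic kinase and the phosphatase that activates it, also rose, and 13 of the 39 genes were at or below the table median.

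Replication genes moved less. Of 37, 7 were called higher and 0 lower (median 0.24), and 4 to 6 without 1 array (4 without deficient replicate 2 or any wild-type array). Rrm2, the inducible subunit of ribonucleotide reductase, read 3.66, 3.42 and 3.64 on wild-type arrays and 5.18, 5.26 and 5.44 on deficient arrays (1.72 ± 0.17, adjusted p = 9.61e-06). Uhrf1, which maintains DNA methylation behind the fork, went from 4.14, 3.42 and 4.03 to 5.17, 5.17 and 5.42 (1.39 ± 0.18, adjusted p = 0.00012). Neither overlapped between genotypes, which for Rrm2 was a condition for the 30 largest rises. The helicase subunits Mcm2 (0.09) and Mcm7 (-0.10) were not called. The machinery that decides entry into the cycle was mixed. Of 25 genes 4 were called, all higher. They were E2f2, from 6.35, 6.10 and 5.83 to 7.38, 7.66 and 7.85 (1.54 ± 0.16, adjusted p = 1.55e-05), Cdk4 (0.58), and 2 genes known to restrain proliferation, Tob1 (1.10) and Mxd4 (0.74). The list median of 0.0008 became -0.07 after median centring, Myc was at -0.27, the D cyclins lay between -0.37 and 0.40, and the inhibitor Cdkn1b was at -0.19.

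The cell cycle homology element TTTGAA, which many genes of late cell cycle phases carry, was searched on both strands. It was found for 75.0% of the called mitosis genes (9, with 12 of 15 having a window). In the whole mitosis list, called or not, the share was alike at 74.2% (23 genes, 31 of 39 with a window). It was 20.2% of all genes, 15.6% of the genes tested and 16.6% of the genes called higher. The CLEAR core was found for 0 of the 12 called mitosis genes with a window. Windows of 3 called genes are shown with TTTGAA or its reverse complement TTCAAA in capitals, at chr10:69352951-69353010 on the - strand for Cdk1, chr2:164769869-164769928 on the + strand for Ube2c and chr11:99024336-99024395 on the - strand for Top2a. In Cdk1 and Ube2c a CCAAT box on the opposite strand (TGATTGG) is capitalised too.
Cdk1: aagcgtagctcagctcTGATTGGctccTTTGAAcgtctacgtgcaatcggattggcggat
Ube2c: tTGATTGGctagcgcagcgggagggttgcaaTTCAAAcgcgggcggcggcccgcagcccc
Top2a: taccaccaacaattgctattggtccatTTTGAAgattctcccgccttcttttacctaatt
The element ends 65, 23 and 173 bases before the start. These matches describe letters and no binding.

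Genes that mark the naive state leaned lower, with a single very large rise. Of 18 quiescence and homing genes 4 fell, 1 rose and 15 had a negative change (median -0.20). Ccr9, a chemokine receptor of gut-homing T cells with the ligand CCL25, had the largest called change. It read 6.94, 6.65 and 6.41 in wild-type cells against 10.63, 10.67 and 10.52 in deficient ones, a rise of 3.94 ± 0.19 (15.4-fold, adjusted p = 3.5e-09), and all 4 of its probe sets were called higher. Igfbp4, a binding protein of insulin-like growth factors known as abundant in naive T cells, had the largest called fall. It read 11.64, 11.36 and 11.48 against 9.43, 9.06 and 9.28 (-2.24 ± 0.20, adjusted p = 2.57e-06), and all 6 of its probe sets fell. The arrays of each genotype were tight for both genes, and the gaps between genotypes were many times wider. Runx1 fell by 0.46 ± 0.09 (adjusted p = 0.00642) but was at -0.23 (adjusted p = 0.104) with its probe sets averaged. The call of Bach2 (-0.61, adjusted p = 0.00956) depended on wild-type replicate 1 (-0.54 and adjusted p = 0.0535 without it) and deficient replicate 1 (-0.57 and 0.0514), and that of Bcl11b (-0.36, adjusted p = 0.0427) on every array. Foxo3 was at -0.35 (adjusted p = 0.0519), Klf2 at -0.19, Lef1 at -0.20 and S1pr1 at -0.39. The Foxo1 probe set was dim (2.45 to 2.94 in wild-type cells).

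Genes of effector and memory cells split in direction. Of 35 measured 10 rose and 4 fell (median 0.38), with 6 to 9 rises and 2 to 4 falls without 1 array (6 rises without wild-type replicate 2). Klrd1, the CD94 chain of an NK-type receptor, read 8.78, 8.94 and 8.89 on wild-type arrays and 10.49, 10.13 and 10.25 on deficient arrays (1.42 ± 0.11, adjusted p = 5.52e-07). Ly6c1, a surface protein of memory cells, went from 10.81, 10.80 and 10.82 to 12.14, 12.17 and 12.05 (1.31 ± 0.16, adjusted p = 6.49e-05). The genotypes were far apart in both. The calcium-binding protein S100a6 (1.57), its relative S100a4 (0.86) and the chemokine receptor Cxcr3 (1.22), all genes of migrating effector cells, rose too. Against these, Cd44, the adhesion receptor that memory cells carry at high levels, read 7.90, 7.93 and 7.90 in wild-type cells against 6.95, 6.73 and 7.06 in deficient ones, a fall to 0.501 of the wild-type signal (-0.996 ± 0.12, adjusted p = 8.38e-05). Il18r1, a chain of the interleukin-18 receptor, fell from 8.78, 8.75 and 8.82 to 7.70, 7.73 and 7.51 (-1.14 ± 0.09, adjusted p = 8.58e-07). Of the factors of effector fate, Tbx21 (0.15), Prdm1 (-0.64) and Eomes (1.20, adjusted p = 0.0628) were not called.

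Of 30 genes that antigen receptor signals induce within hours, 2 rose and 0 fell (median -0.02). That share of 6.67% was near the 5.83% of all genes. Bhlhe40 and Irf4, transcription factors of activated T cells, were the 2. Bhlhe40 read 4.25, 4.49 and 4.74 on wild-type arrays and 6.24, 6.78 and 6.48 on deficient arrays (2.0 ± 0.20, adjusted p = 9.84e-06). Irf4 went from 4.28, 4.13 and 4.14 to 4.87, 5.14 and 5.41 (0.96 ± 0.14, adjusted p = 0.000334). Both were well separated by genotype, although for Bhlhe40, among the 30 largest rises, arrays without overlap were a condition of choice. Immediate early genes and the activation marker Cd69 lay on either side of 0, with Egr1 at -0.26, Nr4a1 at -0.29, Fosb at 0.91 and Cd69 at -0.27. Of 24 costimulatory and activation receptors 2 rose and 1 fell, among them Cd83 (0.59 ± 0.12, adjusted p = 0.00594), with 1 or 2 rises and 0 or 1 falls without any 1 array. Among 29 cytokine receptor genes 3 rose and 3 fell. Il6st, the shared gp130 chain, read 9.04, 9.13 and 8.92 against 8.10, 8.15 and 8.26 (-0.86 ± 0.09, adjusted p = 1.08e-05), and Il12rb1 rose by 1.08 ± 0.22 (adjusted p = 0.00584), from 3.56, 3.36 and 3.41 to 3.96, 5.09 and 4.52. The receptor list's median of 0.06 became -0.003 after median centring.

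Interferon response, ribosome assembly and cell death genes were called at 8.7%, 6.45% and 4.17%, near the 5.83% of all genes. Of 23 interferon genes 2 rose and 0 fell, with a median of -0.13. Gbp3, a guanylate-binding protein, was 6.92, 6.62 and 6.41 in wild-type cells against 7.76, 8.57 and 7.52 in deficient ones (1.30 ± 0.27, adjusted p = 0.00681), highest on deficient replicate 2. The other was Gbp2 of the same family (1.06, adjusted p = 0.0231). It was not called without deficient replicate 2 (0.64, adjusted p = 0.0759) or wild-type replicate 2 (adjusted p = 0.064) or 3 (adjusted p = 0.103). Of 31 ribosome biogenesis genes 1 rose and 1 fell, and Wdr12 went from 7.67, 7.56 and 7.59 to 8.69, 8.72 and 8.54 (1.05 ± 0.12, adjusted p = 4.54e-05). The fall was that of Utp20 (-0.37, adjusted p = 0.0465), which was called in none of the 6 fits without 1 array (adjusted p from 0.0831 to 0.152). Of 24 genes of apoptosis the BH3-only gene Bid was the 1 called, at 6.14, 6.09 and 6.16 against 6.85, 6.83 and 6.91 (0.73 ± 0.12, adjusted p = 0.000801). Both Wdr12 and Bid were separated cleanly. The survival gene Bcl2 was at -0.34 and the killer Bcl2l11 at 0.10.

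Outside these lists, Fam221a read 4.83, 4.85 and 4.72 on wild-type arrays and 8.43, 8.52 and 8.53 on deficient arrays (3.69 ± 0.17, 12.9-fold, adjusted p = 2.21e-09). Abcb1a, the multidrug efflux pump P-glycoprotein, went from 4.64, 4.96 and 4.53 to 8.62, 8.47 and 7.93 (3.63 ± 0.20, 12.4-fold, adjusted p = 1.59e-08), with its second probe set also called higher. Hpgds, which makes prostaglandin D2, went from 2.97, 3.29 and 2.98 to 5.95, 6.20 and 6.11 (3.01 ± 0.18, adjusted p = 5.13e-08). Its wild-type signals lay below the table median, where the size of a change is uncertain. Ptger2, a receptor for prostaglandin E2, rose from 3.91, 3.29 and 3.80 to 6.02, 5.86 and 6.07 (2.32 ± 0.21, adjusted p = 3.36e-06). Pcsk1 (2.61), a prohormone convertase, Acot7 (2.31), an acyl-CoA thioesterase, Rec8 (2.38), the meiotic cohesin, and Kif3a (2.07), a motor of cilia with 4 probe sets called higher, followed.

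Adipoq, the hormone adiponectin of fat cells, read 2.38, 2.62 and 2.31 in wild-type cells against 4.94, 4.27 and 4.94 in deficient ones (2.28 ± 0.16, adjusted p = 1.93e-07). Other fat cell genes, chosen after the values were seen, were not called, with Fabp4 at 0.33, Lpl at 0.26, Retn at -0.004 and Lep at 0.02. Trpm1, a channel of pigment cells and retina, rose by 2.39 ± 0.16, and Myl10, a myosin light chain, by 2.27 ± 0.17. Jchain, the joining chain of antibodies, read 6.20, 5.97 and 6.14 on wild-type arrays and 7.60, 7.56 and 8.92 on deficient arrays (1.92 ± 0.31, adjusted p = 0.000969), highest on deficient replicate 3, where 12 B cell markers also summed highest (10.37 against 9.76 and 9.83 on the other deficient arrays and 9.56 to 9.83 in wild-type). Its groups were apart on all arrays, a condition for the 30 largest rises, and the part of B cells in its rise was not tested. Myb, a factor of progenitor and activated cells, rose by 1.75 ± 0.23 (adjusted p = 0.000125), from 6.01, 6.00 and 5.66 to 7.70, 7.78 and 7.45.

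**Figure D3:**
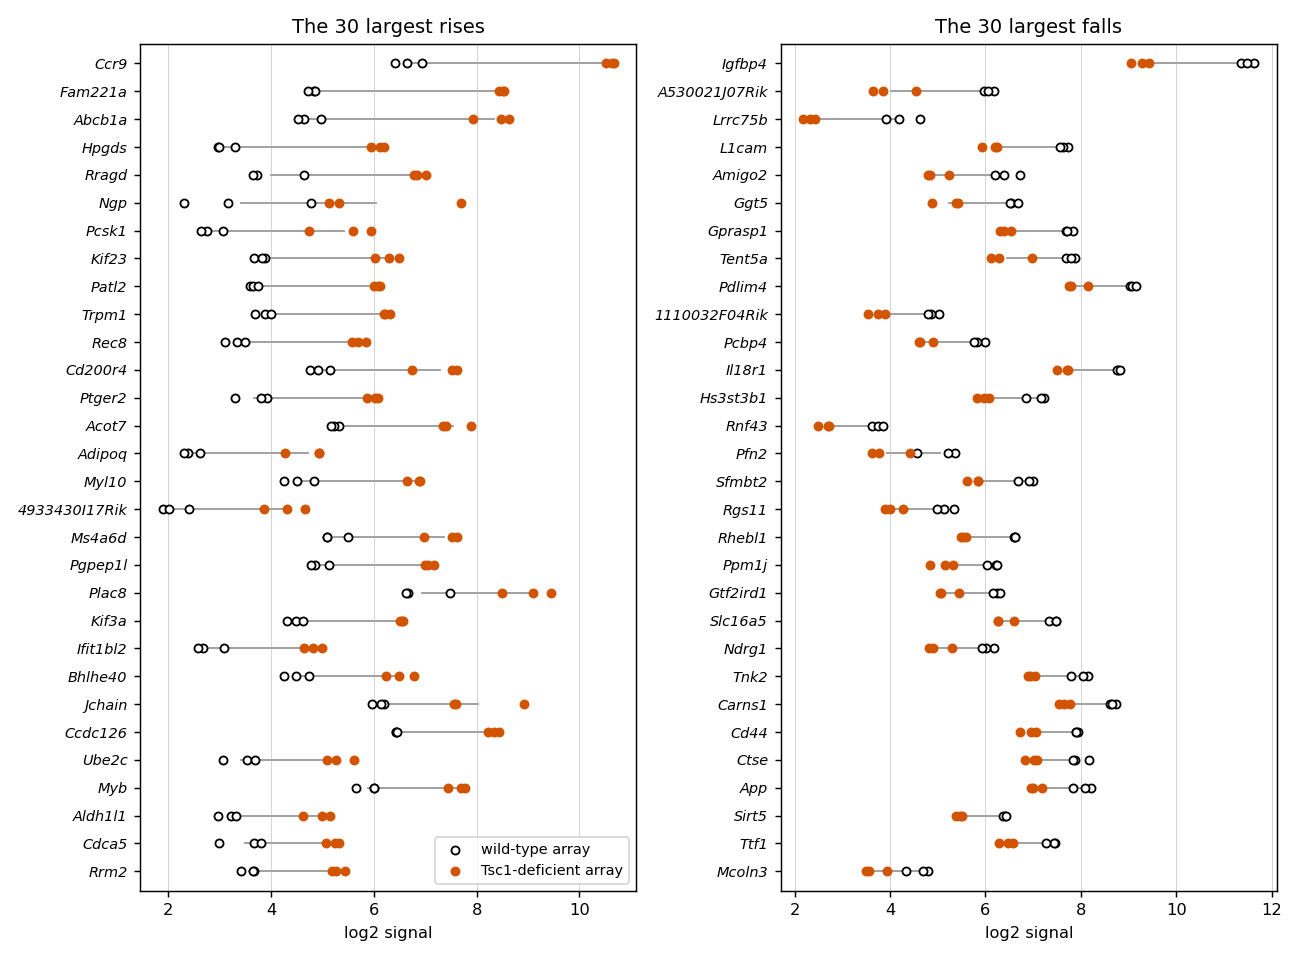
The log2 signal (horizontal axis) of the 30 genes with the largest rises (left) and falls (right) on each of the 6 resting CD4 arrays, open circles for wild-type and orange for Tsc1-deficient, with a line between the group means. Genes are ordered by the size of the change. That the genotypes do not overlap in any of them was a condition for choosing these genes. Ngp, with deficient arrays at 5.32, 5.12 and 7.69, spreads most.

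The largest falls were smaller in size than the largest rises. A530021J07Rik read 6.17, 5.97 and 6.05 in wild-type cells against 3.86, 3.65 and 4.55 in deficient ones (-2.04 ± 0.19, adjusted p = 4.1e-06). L1cam, a neural adhesion molecule, went from 7.74, 7.63 and 7.57 to 6.20, 5.93 and 6.25 (-1.52 ± 0.10, adjusted p = 1.01e-07), while its second, dim probe set was at 0.01. Amigo2, another adhesion molecule, went from 6.73, 6.19 and 6.39 to 4.80, 4.83 and 5.23 (-1.48 ± 0.19, adjusted p = 0.000103). Each was separated by genotype, which was a condition for the 30 largest falls. Tent5a (-1.32), a poly(A) polymerase, Pdlim4 (-1.18), a cytoskeletal adaptor, Ndrg1 (-1.04), App (-0.99), the amyloid precursor, and Sirt5 (-0.95), a mitochondrial deacylase, fell too. Lrrc75b (-1.93) ended below the table median in deficient cells, at 2.42, 2.18 and 2.31. In Aldh1l1, 1110032F04Rik, Ttf1, Mcoln3 and Kif23, too, a second probe set had the opposite sign and was not called. Of all called genes with several probe sets (479), 162 had another one called the same way, 51 had none of the same sign and 0 had one called the opposite way.

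Defining genes of CD4 T cells were present in both genotypes and 0 of 13 were called, a list whose median of 0.03 became -0.03 after median centring. Cd4 read 8.92, 9.04 and 8.89 on wild-type arrays and 9.02, 8.95 and 8.97 on deficient arrays, and Cd3e 9.69, 9.87 and 9.78 against 9.81, 9.62 and 9.76. The groups overlapped for both. Of 5 CD8 lineage genes Klrd1 rose and Runx3 fell by 0.55 ± 0.10 (adjusted p = 0.00186), but Runx3 was at -0.33 (adjusted p = 0.0888) with its probe sets averaged. Cd8a (-0.84) was high on wild-type replicate 1 (6.99, with 6.11 and 6.16 on the others) and lost its call without it (-0.56, adjusted p = 0.122) or without any 1 deficient array (adjusted p from 0.0692 to 0.0893), while Cd8b1 was at -0.15. Of 10 regulatory T cell genes Nrp1, a semaphorin co-receptor, rose from 5.56, 5.32 and 4.98 to 7.06, 6.55 and 7.15 (1.63 ± 0.22, adjusted p = 0.000193) and Capg fell (-0.61), with Foxp3 at -0.04 and Ikzf2 at -0.004. Neutrophil granule genes read highest on replicate 3 of both genotypes, S100a9 for example 5.69, 5.14 and 6.79 in wild-type cells against 7.21, 6.86 and 8.94 in deficient ones. Of the 12 neutrophil genes 11 had a positive change (median 1.06), and Ngp was the 1 called. The surface receptor genes Cxcr2 (-0.01, the lowest of that list) and Csf3r (0.03) were not called. Haemoglobin, Hba-a1, was also highest on replicate 3 of both (9.10 and 9.87). No erythroid (5), platelet (7), gamma delta T cell (2) or thymocyte gene (7) was called, and 1 of 12 B cell genes (Cd79b, 0.63, lost without any 1 array but deficient replicate 1) and 2 of 11 NK cell genes (Gzma 1.19 and Prf1 -0.85, each lost without any 1 array but deficient replicate 1) were. The part of other cells in the profile was not tested beyond these values.

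Some of the largest changes sat beside each other in the genome. In the RefSeq gene order of GRCm38.p6, 96 of 676 placed genes called higher (14.2%) had a neighbouring tested gene called higher, against 7.66% of all 17053 placed genes. For falls it was 24 of 320 (7.5%) against 3.68%. The neighbours named next were chosen after their values were seen. Abcb1a lies between Rundc3b (1.19) and its paralogue Abcb1b (1.24) on chromosome 5, and Pgpep1l (2.15) between Igf1r (1.14), the receptor of insulin-like growth factor 1, and Fam169b (0.75) on chromosome 7; these were the only runs of 3 neighbours called the same way. Ccr9 neighbours Lztfl1 (1.28) on chromosome 9, Fam221a neighbours Ccdc126 (1.90) on chromosome 6, and Ifit1bl2 neighbours Ifit1bl1 (1.20) on chromosome 19. Among falls Lrrc75b neighbours Ggt5 (-1.35) on chromosome 10. All of these calls held without any 1 resting array. Whether probes for paralogues such as Abcb1a and Abcb1b bind each other's transcript was not tested.

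The surroundings of Tsc1 on chromosome 2 were looked at in the same order. Of 50 tested genes in the 25 places on either side, 0 were called higher and 4 lower. Over all genes 3.96% were called higher and 1.87% lower. Ttf1 (-0.94), a terminator of ribosomal RNA transcription, read 7.46, 7.44 and 7.26 on wild-type arrays and 6.28, 6.48 and 6.57 on deficient arrays, though its second probe set was at 0.01. Brd3 (-0.40), Rxra (-0.53) and Rapgef1 (-0.43) each lost the call in 5 of 6 fits without 1 array (adjusted p up to 0.114, 0.14 and 0.067).

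The same genes were then read in the other conditions, whose arrays are different ones. After 4 h of stimulation 9.45% of all genes differed by genotype, and in resting CD8 cells 5.82%. Of the 30 largest rises, 23 were also called higher in stimulated CD4 cells and 27 in CD8 cells, and all 30 had a positive change in both. Of the 30 largest falls, 18 and 23 were called lower, and 30 and 29 were negative. The exception was Rnf43, an E3 ligase that restrains Wnt receptors, at -1.11 in resting CD4 cells, -0.02 in stimulated CD4 cells and 0.05 in CD8 cells. Abcb1a rose in each condition (3.63 at rest, 3.69 stimulated, 2.52 in CD8), as did Rragd (2.87, 2.99 and 2.76), Acot7 (2.31, 2.31 and 2.54) and Pcsk1 (2.61, 2.22 and 2.55), and in none of these 4 was a difference of changes called.

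**Figure D4:**
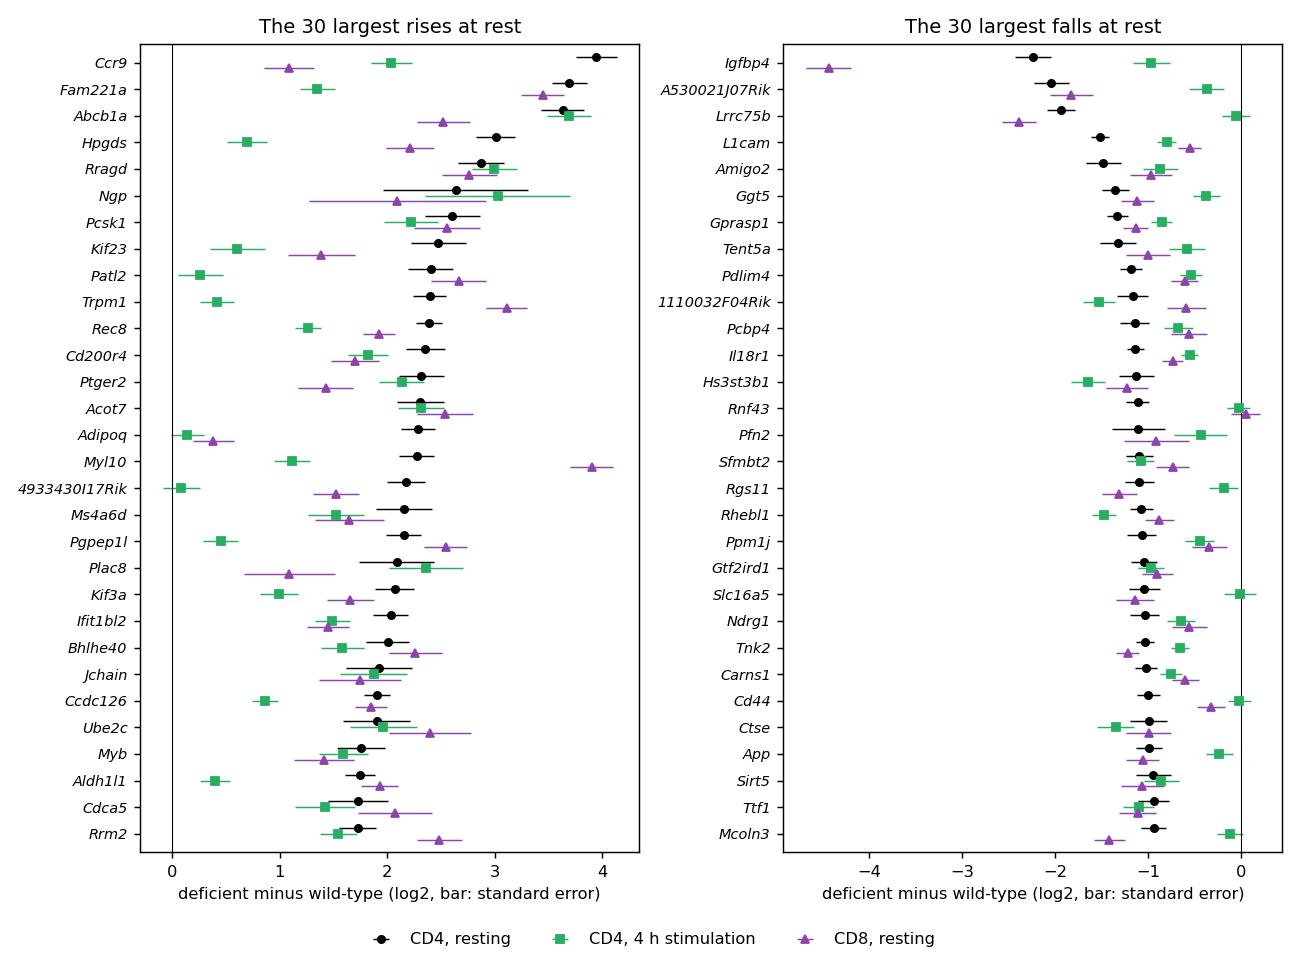
Deficient minus wild-type difference (log2, horizontal axis, bars are standard errors) of the 30 largest rises (left) and falls (right) at rest, for resting CD4 cells (black), CD4 cells after 4 h of stimulation (green) and resting CD8 cells (purple). Abcb1a and Rragd lie far to the right in all conditions, while Adipoq, Patl2 and Trpm1 are near 0 after stimulation and Igfbp4 reaches -4.44 in CD8 cells.

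The difference between the stimulated and the resting change was called for 1.2% of all genes, and for 14 of the 30 rises and 10 of the 30 falls, all toward a smaller change under stimulation. Over all genes 206 differences were called, and 103 to 139 without any 1 resting CD4 array (103 without deficient replicate 2, 109 without wild-type replicate 2 and 115 without replicate 1 of either genotype). These genes were chosen for a large resting change, which by itself favours smaller changes elsewhere. Ccr9 rose by 2.04 in stimulated cells (difference -1.91 ± 0.27, adjusted p = 0.00193) and by 1.08 in CD8 cells (difference -2.86 ± 0.30, adjusted p = 0.000775), where the wild-type level was 10.73 ± 0.07 (SD, n = 2) and so close to that of deficient CD4 cells. Fam221a rose by 1.35 under stimulation (difference -2.34 ± 0.23, adjusted p = 0.000345) but by 3.45 in CD8 cells. Patl2 and Trpm1 likewise were at 0.26 and 0.41 under stimulation and rose by 2.66 and 3.11 in CD8 cells. Adipoq was not called in either, at 0.14 under stimulation and 0.38 in CD8 cells (differences -2.14, adjusted p = 0.000345, and -1.90, adjusted p = 0.00322).

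Between CD8 and resting CD4 cells the difference was called for 0.117% of all genes, for 3 of the 30 rises (Ccr9, Adipoq and Myl10) and for 3 of the 30 falls (Igfbp4, L1cam and Rnf43). Over all genes 20 were called, and 8 to 12 without any 1 resting CD4 array. Of these 6 differences, that of Rnf43 was not called without any 1 of those arrays, that of Myl10 not without wild-type replicate 1 or 3 or deficient replicate 3, and that of L1cam not without wild-type replicate 1 or 2. Myl10 rose by 3.90 in CD8 cells against 2.27 in CD4 cells (difference 1.63 ± 0.26, adjusted p = 0.0207), and Igfbp4 was at -4.44 against -2.24 (difference -2.20 ± 0.31, adjusted p = 0.00637). Both changes were thus larger in CD8 cells. Among genes of the lists, Klrd1 rose in resting CD4 cells but was at 0.18 under stimulation and -0.12 in CD8 cells (differences -1.24, adjusted p = 0.000723, and -1.54, adjusted p = 0.000775). Irf4 turned from a rise of 0.96 at rest to -0.47 under stimulation (difference -1.43, adjusted p = 0.00137). Lysosomal genes such as Hexa (0.93 stimulated, 1.16 in CD8) and Ctsl (1.12 and 0.94) rose in all 3 conditions.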

How the data were processed

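RNA of sorted naive T cells was hybridised to Affymetrix arrays. The deposited values are log2 signals, which the authors made with RMA in Partek 6.5, per the submitters' processing notes; no genome build is named there. Of 45141 probe sets, 28898 name a single gene and gave 17097 genes, with the brightest probe set kept for each. In limma 3.58.1 (R 4.3.3) all 16 arrays were fitted with a mean per group and 10 residual degrees of freedom, and p-values were adjusted over all genes by Benjamini-Hochberg. No low signals were filtered out. On simulated data, 55% of 100 genes changed by 0.5 and 97% of 100 changed by 1 were called, and so were 14 unchanged genes of the 17097 simulated. Named genes were the 30 largest rises and the 30 largest falls, Tsc1, and up to 8 called members per list. The rises and falls were called, had arrays that did not overlap between genotypes and had a higher mean above the table median. Genes that were not called are given for comparison. Members and lists were chosen with earlier results of these data known. Promoter windows came from RefSeq. Alternatives are given in the closing section. The number of arrays limits the precision.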

Additional observations from a re-analysis of the deposited data

Results flagged for a closer look

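The genotype change of these genes differed between conditions in limma's test of the difference (adjusted p under 0.05), which is what marked them. They were named for their change in resting CD4 cells, which by itself favours a smaller change elsewhere, and both differences share the resting arrays.

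For the stimulated minus the resting change, the values (log2) below 0 were Ccr9 (-1.91), Fam221a (-2.34), Hpgds (-2.31), Kif23 (-1.87), Patl2 (-2.15), Trpm1 (-1.98), Rec8 (-1.12), Adipoq (-2.14), Myl10 (-1.16), 4933430I17Rik (-2.09), Pgpep1l (-1.70), Kif3a (-1.07), Ccdc126 (-1.04), Aldh1l1 (-1.36), Lamtor1 (-0.57), Cdc25b (-1.01), Klrd1 (-1.24), Irf4 (-1.43) and Wdr12 (-0.87). Those above 0 were Igfbp4 (1.27), A530021J07Rik (1.67), Lrrc75b (1.88), L1cam (0.72), Ggt5 (0.98), Il18r1 (0.59), Rnf43 (1.09), Slc16a5 (1.03), Cd44 (0.97), Mcoln3 (0.82) and Cd200 (1.05).

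For the CD8 minus the resting CD4 change, the values (log2) were Ccr9 (-2.86), Adipoq (-1.90), Myl10 (1.63), Igfbp4 (-2.20), L1cam (0.97), Rnf43 (1.16), Mki67 (1.31) and Klrd1 (-1.54). These rest on 2 CD8 arrays per genotype.

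Without 1 of the 6 resting CD4 arrays, 12 of the 30 differences under stimulation and 4 of the 8 in CD8 cells were not called in at least 1 fit. Under stimulation, Kif3a, Igfbp4 and Il18r1 were called in none of the 6 fits, Slc16a5 and Lamtor1 in 1, Myl10, Ggt5 and Mcoln3 in 2, Wdr12 in 3, Kif23 and L1cam in 4 and Cd200 in 5. In CD8 cells, Rnf43 and Mki67 were called in none, Myl10 in 3 and L1cam in 4.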

How the results depend on the processing

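No paired analysis was possible because the labels give no replicate numbers that link the genotypes, and replicates were numbered in accession order. Consecutive title numbers may link resting and stimulated arrays within a genotype. With them as a random block (consensus correlation 0.0304) 997 genes were called, 996 of them the same. Differences between conditions, whose alternatives other than 2 were chosen after seeing the data, then numbered 231 (stimulated minus resting) and 19 (CD8 minus CD4). Leaving out each array in turn gave 589 to 704 called genes, 420 to 490 higher, 162 to 214 lower, 146 to 168 past 2-fold (161 with all arrays), 21 to 30 lysosomal, 8 to 10 sterol and 12 to 16 mitosis genes, with Tsc1 at -0.86 to -0.79. Differences numbered 103 to 139 and 8 to 12. Array weights gave 1937 called genes (1243 higher, 694 lower), 23 mitosis genes and 351 differences after stimulation. The 6 resting arrays alone gave 1415 (482 lower) and 23 mitosis genes. Without the 2 arrays with a high 3′ to 5′ Gapdh ratio, 1723 were called (1111 higher, 612 lower), and differences between conditions were called for 325 genes (stimulated minus resting, 206 with all arrays) and 31 (CD8 minus CD4, 20 with all arrays). Median centring gave 557 falls. The cause of these shifts was not tested. Averaged probe sets called 999 genes (817 shared), all probe sets 1065 (887), a filter on dim genes 1172 (961), quantile normalization 1093 (921), and an intensity trend with robust prior 1089 (946). Of 171 named genes 0 reversed. Without 1 array, Ngp and Pfn2 (0.0291 with all arrays, adjusted p) lost their call among the 60 largest changes, as did 48 of 111 list genes. Signals near the table median limit what can be said of dim genes.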

Other observations

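Among genes outside the naming rule, chosen after their values were seen, Hspa1b, an inducible heat shock protein, had a large difference that was not called. Wild-type arrays averaged 9.08 ± 0.68 (SD, n = 3) and deficient arrays 6.52 ± 2.69 (SD, n = 3), which is a difference of -2.55 ± 0.96 (standard error; limma, adjusted p = 0.156), and the spread of the deficient arrays was the wider. Ms4a4c, a membrane gene of the MS4A family, rose by 1.68 ± 0.15, and Gpnmb, a glycoprotein of endosomes and lysosomes, by 1.39 ± 0.20. Both calls held without any 1 resting array.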
